A study of Mus musculus with 24 samples.

Results

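The activity-dependent immediate early genes studied here are 10 genes, chosen by symbol: the AP-1 subunits Fos, Fosb, Fosl2 and Junb, the zinc finger factors Egr1, Egr2, Egr3 and Egr4, the neuron-specific factor Npas4, and Arc. All 10 were found, among 24340 genes listed in every deposited table. RNA was sequenced from the striatum of 1 hemisphere in 24 male mice on a C57BL/6J background. R6/1 mice are hemizygous for a human transgene that holds HTT exon 1 carrying an expanded CAG repeat and serve as a model of Huntington's disease, and their wild type (WT) littermates lack it. Mice of both genotypes received RGFP109, an inhibitor of the histone deacetylases HDAC1 and HDAC3, at 30 mg/kg by intraperitoneal injection 5 times per week for 3 weeks, or vehicle, the solvent of DMSO diluted in saline. Treatment began at 11 to 14 weeks of age, and striata were taken at 14 to 17 weeks, 18 h after the last injection. The groups were WT-vehicle (5 libraries), R6/1-vehicle (6 libraries), WT-RGFP109 (6 libraries) and R6/1-RGFP109 (7 libraries).

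Expression was available as FPKM, a read-depth-scaled and length-scaled measure (fragments per kilobase of transcript, relative to all mapped fragments), in 6 tables that each set 2 of the groups side by side. Each table holds 1 value per gene and group, an estimate over all libraries of that group. These values carry neither the spread between mice nor the read depth, so no test between groups was made from them, and the differences below were not set against the variation between animals. Log2 differences were taken within the table that holds both groups, on the scale of log2(FPKM + 0.05), for genes above 0.1 FPKM in either group. A gene counted as lower or higher when its log2 difference was beyond 0.5. All 10 genes passed the expression minimum in every comparison. For levels across the 4 groups, tables were put on 1 scale by the median ratio over genes, with a lowest ratio of 0.962. In the striatum, fewer cells of a type and less RNA per cell cannot be told apart from such values.

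Immediate early genes are transcribed within minutes of synaptic stimulation, before any new protein is made, because the factors that switch them on are already present in the resting neuron. Calcium entry and receptor signaling activate kinases that phosphorylate CREB and the ternary complex factors bound with SRF, and these occupy cAMP response elements (CRE) and serum response elements, the latter built around a CArG box, in the promoters. Most immediate early genes encode transcription factors that drive a later wave of genes, whereas Arc encodes a protein that acts at synapses. In the striatum they respond to glutamate from the cortex and to dopamine, and Fos, Egr1 and Arc are widely used as markers of recently active neurons.

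The promoters are shown first, since these genes are grouped by how they are switched on. Windows of 250 bases before the RefSeq start site (GRCm38.p6, the assembly named mm10 in the tables) were read for 7 of the 10 genes, Fos, Fosb, Fosl2, Junb, Egr2, Egr4 and Npas4, and those of Egr1, Egr3 and Arc were not analysed here. The core of the CRE, TGACG on either strand, was found in 6 of these 7 windows, all except that of Fosl2, and in 17.8% of 32851 windows of the same length. Whole windows are given here to show where the cores lie, that of Fos (chr12:85473640-85473889, plus strand) and that of Junb (chr8:84978749-84978998, minus strand). Both read 5′ to 3′ along the gene, with the start site just after the last base and the cores in capitals.
Fos: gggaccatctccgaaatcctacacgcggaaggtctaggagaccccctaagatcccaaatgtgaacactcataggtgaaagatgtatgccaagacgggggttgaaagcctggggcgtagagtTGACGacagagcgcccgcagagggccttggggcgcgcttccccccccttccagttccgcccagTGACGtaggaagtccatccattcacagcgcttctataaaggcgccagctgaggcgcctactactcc
Junb: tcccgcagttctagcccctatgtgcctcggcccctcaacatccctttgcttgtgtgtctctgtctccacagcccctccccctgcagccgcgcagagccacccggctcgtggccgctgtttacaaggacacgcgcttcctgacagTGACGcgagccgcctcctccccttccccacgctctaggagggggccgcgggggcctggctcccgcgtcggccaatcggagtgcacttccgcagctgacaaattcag
Fos held 2 cores, at bases -129 and -66 from the start site, and Junb held 1, at base -106.

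Shorter stretches show both cores of Npas4 (chr19:4990132-4990161, minus strand) and 1 core each of Egr2 (chr10:67537794-67537823, plus strand) and Egr4 (chr6:85513682-85513711, minus strand), chosen because Npas4 and Egr2 differed strongly between genotypes and Egr4 less so. Capitals mark the CRE core on either strand and, in Egr2, also the CArG box.
Npas4: ctcccgttcgaCGTCAcgggaTGACGtcgg
Egr2: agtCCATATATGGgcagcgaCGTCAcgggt
Egr4: gtttggtcatttaCGTCAcggcgccagggc
Npas4 held 2 cores in opposite orientation, at bases -179 and -169. Egr2 held cores at -111 and -55 with a CArG box from -72 to -63 between them, and was the only 1 of the 7 windows with that box, which was found in 1.47% of all windows. Egr4 held cores at -177 and -109, and Fosb held 1 at -60. The complete palindrome TGACGTCA, which contains the core, was in none of the 7 windows and in 1.55% of all. The binding site of EGR proteins, GCGNGGGCG, was found in Fosb at -50 and Fosl2 at -79 and in 4.70% of all windows. The AP-1 site TGANTCA was in none of the 7 windows and in 6.75% of all. These are matches of letters in 250 bases only.

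**Figure D1:**
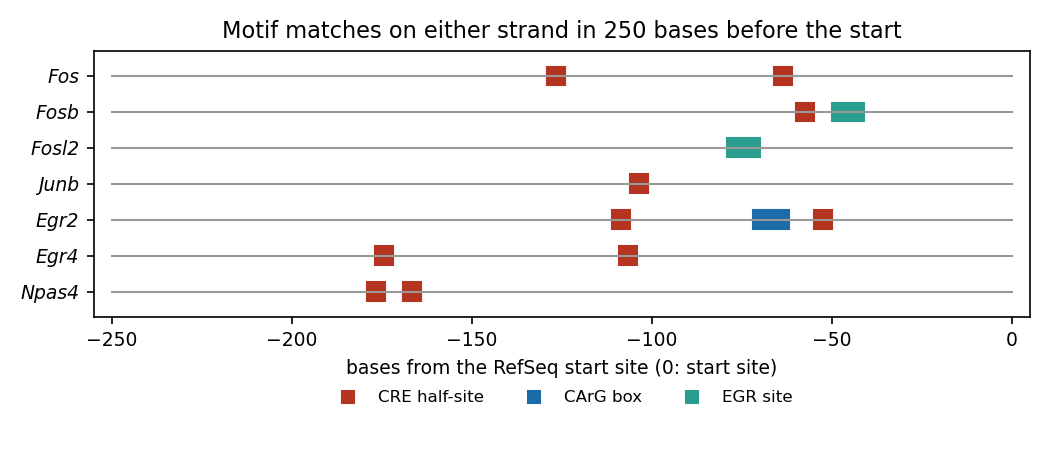
Positions of motif matches on either strand, in bases from the RefSeq start site, for the 7 immediate early genes with a promoter window. Red boxes mark CRE cores, the blue box a CArG box and green boxes EGR sites, and every gene except Fosl2 carries at least 1 red box.

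The members spanned a wide range of levels in the WT striatum. In WT-vehicle mice Egr1 stood at 92.6 FPKM, Arc at 75.1 and Junb at 56.5, and these 3 genes made up 70.3% of the 319 FPKM summed over the 10 genes. Egr3 (29.9 FPKM), Egr4 (22.8), Npas4 (17.1) and Fos (13.0) followed, and Egr2 (4.47), Fosb (3.80) and Fosl2 (3.77) were low. The summed level was 277 FPKM in WT-RGFP109, against 158 in R6/1-vehicle and 161 in R6/1-RGFP109, so that the WT groups were both above the R6/1 groups. Gene by gene, both WT values lay above both R6/1 values for 9 of the 10 genes, Fosb being the exception, against 36.7% of the 17261 genes above 0.1 FPKM in any group. WT-vehicle held the highest value for 7 of the 10 genes, and the share of all genes for which this holds was not computed. The spans of the 10 genes on the genome ran from 1840 to 21368 bases with a median of 4035, against a median of 19524 over all genes listed, and the genes lay on 10 different chromosomes.

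**Figure D2:**
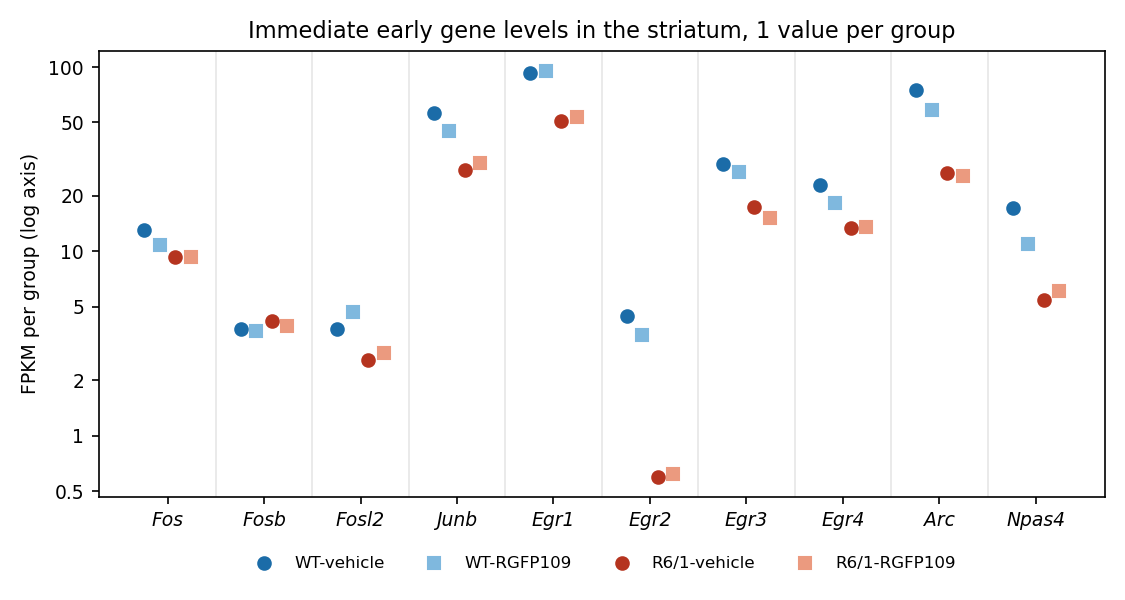
FPKM of each immediate early gene in the 4 groups on a log axis, 1 point per group with no error available. Blue points are WT and red points R6/1, circles are vehicle and squares RGFP109. The red points lie below the blue points for every gene except Fosb.

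With vehicle, the immediate early genes were lower in R6/1 than in WT striatum, and the sizes differed widely between members. Of the 10 genes, 8 were lower beyond the log2 difference of 0.5 and none was higher, while 13.4% of the 16972 genes compared were lower and 5.84% higher. The median log2 difference of the 10 genes was -0.82, and that of all genes -0.019. Egr2, Npas4, Arc and Junb differed by more than 1 on the log2 scale.

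Among the AP-1 subunits, Junb differed most and Fosb was not lower. Fos and its relatives encode proteins that pair with Jun proteins to form AP-1. Junb (chr8:84976909-84978748), a Jun protein, was at 56.5 FPKM in WT-vehicle and 27.7 in R6/1-vehicle, that is at 48.9% of WT, a log2 difference of -1.03. Fos (chr12:85473901-85477270), the founding member of the family, was at 13.0 and 9.35 FPKM, a log2 difference of -0.47 that stayed just inside the limit. Fosl2 (chr5:32136472-32157839), encoding Fra-2, was at 3.77 and 2.58 FPKM, a log2 difference of -0.54 just past it. These Fos family values are therefore close to each other in log2 size although they fall on either side of the limit. Fosb (chr7:19302696-19310045), whose transcript is also spliced to the long-lived protein known as ΔFosB, was at 3.80 and 4.19 FPKM, a log2 difference of 0.14. A level per gene does not separate its splice forms. Fosb made up 18.5% of the summed Fos, Fosb and Fosl2 FPKM in WT-vehicle and 26.0% in R6/1-vehicle, and Junb made up 42.1% and 31.8% of the summed Jun, Junb and Jund FPKM.

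All 4 EGR genes were lower in R6/1-vehicle, and Egr2 stood apart from the other three. EGR proteins are zinc finger transcription factors that bind GC-rich sites. Egr2 (chr10:67537869-67542188), also known as Krox20, was at 4.47 FPKM in WT-vehicle and 0.599 in R6/1-vehicle, at 13.4% of WT and a log2 difference of -2.80. At so low a level this size depends on the pseudocount, and with 1 FPKM added the log2 difference was -1.77. Its share of the summed FPKM of the 4 EGR genes was 2.98% in WT-vehicle and 0.730% in R6/1-vehicle. The other three EGR genes lay close together on the log2 scale. Egr1 on chromosome 18, also known as Zif268, was at 92.6 and 50.8 FPKM, a log2 difference of -0.87, and in absolute terms its difference of -41.8 FPKM came next to that of Arc. Egr3 (chr14:70077445-70082613) was at 29.9 and 17.3 FPKM, and Egr4 (chr6:85511122-85513542) at 22.8 and 13.3. Their levels in R6/1-vehicle were 58.0% and 58.4% of WT-vehicle, with log2 differences of -0.78 and -0.77. Egr1 made up 61.9% of the summed EGR level in both groups.

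Npas4 and Arc followed Egr2 in the size of the log2 difference with vehicle. Npas4 (chr19:4984355-4989971) encodes a transcription factor that is induced by calcium entry and regulates inhibitory synapses. Its level was 17.1 FPKM in WT-vehicle and 5.43 in R6/1-vehicle, at 31.7% of WT and a log2 difference of -1.65. Arc (chr15:74669081-74672570) encodes a synaptic protein that promotes the removal of AMPA receptors. It was at 75.1 and 26.7 FPKM, at 35.5% of WT and a log2 difference of -1.49. Its difference of -48.5 FPKM exceeded in size that of each of the other nine genes.

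The same genotypes were compared in the mice given RGFP109, which share no library with the vehicle groups, and the immediate early genes were again lower in R6/1. Of the 10 genes, 7 were lower and none higher, while 11.7% of 16954 genes were lower and 5.39% higher. The median was -0.78, against 0.000 for all genes. Egr2 was at 3.50 FPKM in WT-RGFP109 and 0.619 in R6/1-RGFP109, a log2 difference of -2.41. Arc was at 58.1 and 25.5 FPKM (-1.18), and Npas4 at 10.9 and 6.06 FPKM (-0.83). The order of Egr2 and Arc was thus kept, whereas Npas4 came to lie among the other EGR genes.
Egr1 was at 95.1 and 53.5 FPKM (-0.83) and Egr3 at 27.0 and 15.2 FPKM (-0.82), both within 0.04 log2 of their vehicle values. Egr4 was at 18.2 and 13.5 FPKM, a log2 difference of -0.43 that no longer reached the limit. Among the AP-1 genes, Junb was at 44.7 and 30.0 FPKM (-0.57), Fosl2 at 4.71 and 2.82 FPKM (-0.73), and Fos at 10.8 and 9.36 FPKM (-0.20). Fosb was again a little higher in R6/1, at 3.69 FPKM in WT-RGFP109 and 3.93 in R6/1-RGFP109 (0.09).

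The sign of the genotype difference was the same with vehicle and with RGFP109 for 10 of 10 genes, and for 80.4% of the 16662 genes kept in both comparisons. The 7 genes Fosl2, Junb, Egr1, Egr2, Egr3, Arc and Npas4 were lower in both, a property shared by 7.74% of genes. For 8 of the 10 genes the difference was closer to 0 with RGFP109, Fosl2 and Egr3 being the exceptions. Among the 8 genes that were lower with vehicle this held for 6, and among all 2114 genes that were lower with vehicle for 73.5%, so the share of the immediate early genes was near the background. Subtracting the vehicle difference from the RGFP109 difference gave 0.81 for Npas4, 0.46 for Junb, 0.39 for Egr2, 0.35 for Egr4, 0.31 for Arc and 0.27 for Fos. It gave 0.04 for Egr1, -0.04 for Egr3, -0.05 for Fosb and -0.19 for Fosl2. The median over the 10 genes was 0.29, and over all genes 0.009. The latter includes genes that were higher with vehicle, and a median over the 2114 genes that were lower with vehicle was not computed. No test of these differences was possible. Npas4 in WT was at 17.1 FPKM with vehicle and 10.9 with RGFP109, while in R6/1 it was at 5.43 and 6.06.

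**Figure D3:**
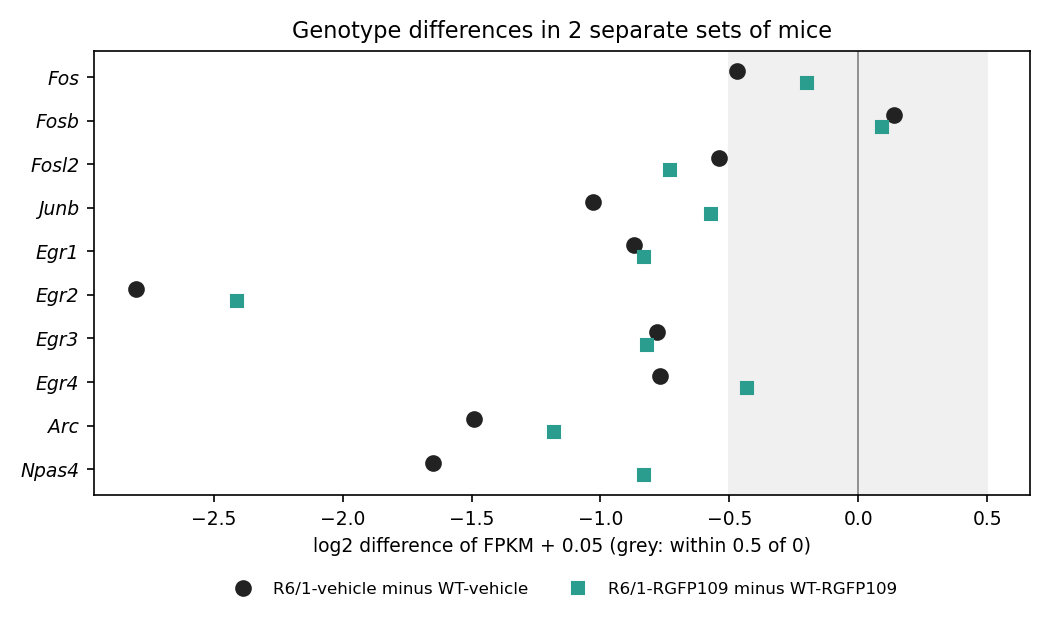
Log2 difference of FPKM + 0.05 between R6/1 and WT for each immediate early gene, with vehicle (black circles) and with RGFP109 (green squares). The grey band covers differences within 0.5 of 0. All genes except Fosb lie left of 0 in both comparisons, with Egr2 farthest out at -2.80 and -2.41.

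RGFP109 was then compared with vehicle within each genotype, using the same group values as above. In R6/1 mice the immediate early genes were at nearly the same level with RGFP109 and with vehicle. None of the 10 genes was lower or higher beyond the limit, against 3.14% of 16840 genes lower and 2.62% higher. The log2 differences ran from -0.19 for Egr3 to 0.16 for Npas4, with a median of 0.03, and the median of all genes was 0.001. Fos, at 9.35 FPKM with vehicle and 9.36 with RGFP109, and Egr2, at 0.599 and 0.619, show how near the values were. Egr2 in this table carried the status of a gene with too few alignments for the authors' test. Fosl2 and Junb both differed by 0.12, Egr1 by 0.07 and Egr4 by 0.02 in the upward direction, and Fosb by -0.09 and Arc by -0.06.

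In WT mice, 8 of the 10 genes had a lower value with RGFP109 than with vehicle, of whatever size, as did 52.0% of the 16957 genes compared. Only Npas4 passed the limit, at 17.1 FPKM with vehicle and 10.9 with RGFP109, a log2 difference of -0.66, and none was higher beyond it. Of the 16957 genes, 4.92% were lower beyond the limit and 3.19% higher beyond it. The median of the 10 genes was -0.30, against -0.006 for all genes. A group of 5 genes lay between -0.27 and -0.37: Arc (-0.37), Egr2 (-0.35), Junb (-0.34), Egr4 (-0.32) and Fos (-0.27). Egr3 differed by -0.14, Fosb by -0.04 and Egr1 by 0.04. Fosl2 was higher, at 3.77 FPKM with vehicle and 4.71 with RGFP109, a log2 difference of 0.32. Fosb, Egr3 and Arc had a lower value with RGFP109 in both genotypes. Fos was lower in WT, and its log2 difference in R6/1 rounded to 0.00.

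**Figure D4:**
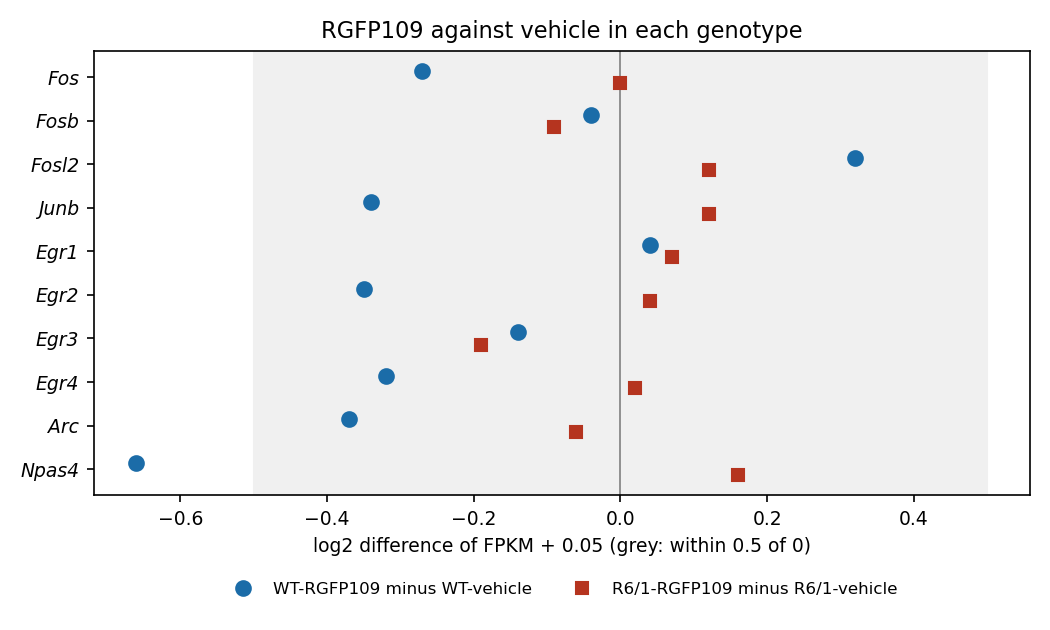
Log2 difference of FPKM + 0.05 between RGFP109 and vehicle for each immediate early gene, in WT (blue circles) and R6/1 (red squares). The grey band covers differences within 0.5 of 0. Npas4 in WT, at -0.66, is the only point outside the band.

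To see how far RGFP109-treated R6/1 mice stood from vehicle-treated WT mice, these groups were compared in their own table. In R6/1-RGFP109, 7 of the 10 genes were lower than in WT-vehicle and none was higher, while 13.8% of 16982 genes were lower and 5.42% higher. The median was -0.85, against -0.016 for all genes, with Egr2 at -2.75, Arc at -1.55 and Npas4 at -1.49. As a share of WT-vehicle, the levels in R6/1-RGFP109 were 13.9% for Egr2, 34.0% for Arc, 35.4% for Npas4, 50.9% for Egr3 and 53.0% for Junb. The remaining genes were at 57.8% (Egr1), 59.4% (Egr4), 72.0% (Fos), 74.7% (Fosl2) and 103% (Fosb). In the crossed comparison of R6/1-vehicle with WT-RGFP109, 7 of the 10 genes were again lower and none higher, while 11.4% of 16949 genes were lower and 5.96% higher. The median there was -0.77, with Egr2 at -2.45, Arc at -1.12 and Npas4 at -0.99. Both comparisons use the group values of the earlier ones and are no further evidence on the same genes.

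Other genes of the activity response were read from lists of known function. Of 22 other rapid activity genes, 14 were lower in R6/1-vehicle than in WT-vehicle and none was higher, with a median of -0.67. Of all genes in that comparison, 13.4% were lower and 5.84% higher. Nr4a2, an orphan nuclear receptor, was at 11.3 and 5.17 FPKM (-1.11), and Ier2 at 4.99 and 2.30 FPKM (-1.10). At the other end of the list, Maff, a small MAF protein, differed by 0.28 and Fbxo33 by 0.15. With RGFP109, 10 of the 22 were lower in R6/1, with a median of -0.44, while 11.7% of all genes were lower. Of 16 genes of the delayed response, 8 were lower with vehicle (median -0.49) and 7 with RGFP109 (median -0.48), and none was higher in either. Ptgs2, which encodes cyclooxygenase-2, differed by -0.97 with vehicle, and Inhba, encoding a subunit of activin, was at 2.24 and 1.15 FPKM (-0.94). The prohormone convertase gene Pcsk1 was at 5.80 and 7.74 FPKM (0.41), and the secretogranin gene Scg2 differed by 0.10. The medians of both lists were thus nearer to 0 than that of the 10 immediate early genes.

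The upstream regulators, that is the kinases, transcription factors and coactivators that act on immediate early genes, lay near 0 as a list. With vehicle 1 of 24 was lower in R6/1 and none was higher, with a median of -0.07, and with RGFP109 again 1 was lower, with a median of -0.10. Of all genes, 13.4% were lower with vehicle and 11.7% with RGFP109. Camk4, a nuclear calcium-dependent kinase that phosphorylates CREB, was the lower gene both times, at 28.9 FPKM in WT-vehicle and 15.4 in R6/1-vehicle (-0.91). Rps6ka5, encoding the kinase MSK1, differed by -0.47. The coactivator genes Crebbp and Ep300 were the highest of the list, at 0.48 and 0.47, inside the limit. Of the 7 AP-1 subunits outside the set, 6 passed the expression minimum, 1 was lower with vehicle and 1 higher. The shares of all genes were 13.4% and 5.84%. Batf3 was at 2.26 and 0.914 FPKM (-1.26), Batf was near the minimum at 0.0764 and 0.206 FPKM (1.02), Jun differed by -0.50 without passing the limit, and Maff, which is in both lists, is given above. In the comparisons of RGFP109 with vehicle, these 4 lists had medians from -0.03 to 0.09 in R6/1 and from -0.23 to 0.05 in WT.

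**Figure D5:**
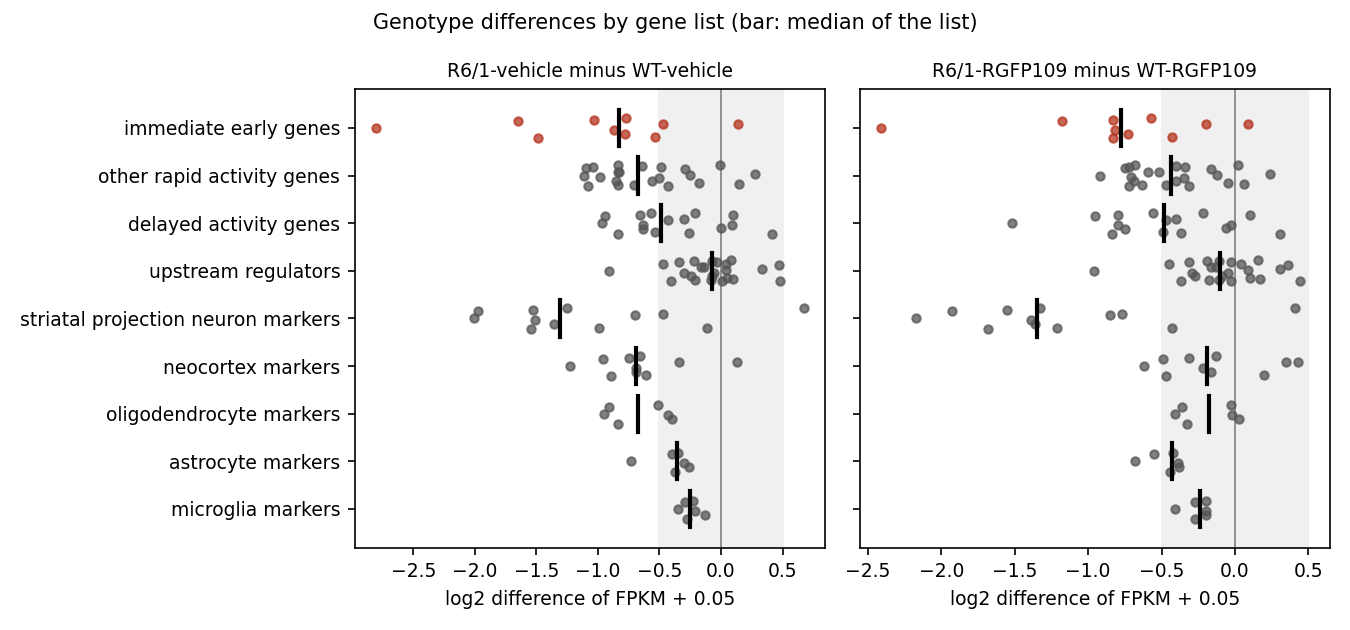
Log2 difference of FPKM + 0.05 between R6/1 and WT with vehicle (left) and with RGFP109 (right), 1 point per gene, for the 10 immediate early genes (red) and 8 other gene lists (grey), with a black bar at each median. The upstream regulators center near 0, and the neocortex and oligodendrocyte markers lie nearer to 0 with RGFP109 than with vehicle.

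Markers of cell types moved with the groups. Of 12 markers of striatal projection neurons, the cells that make up most of the striatum, 9 were lower in R6/1-vehicle, 1 was higher and the median was -1.31. Of all genes, 13.4% were lower and 5.84% higher in that comparison. Penk, encoding enkephalin, was at 1110 FPKM in WT-vehicle and 276 in R6/1-vehicle (-2.01), and Adora2a differed by -1.97, whereas Tac1 differed by -0.11 and Isl1 was higher (0.67). Their summed level was 3446, 1345, 3319 and 1208 FPKM in WT-vehicle, R6/1-vehicle, WT-RGFP109 and R6/1-RGFP109. All these markers were detected in every group.

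Markers of the neocortex, which borders the striatum, and of glia moved as well. Of 10 neocortex markers, 8 were lower in R6/1-vehicle than in WT-vehicle (median -0.69), with Fezf2 at -1.23 and Nrgn at -0.96 against Rorb at -0.34 and Cux2 at 0.13. Of 6 oligodendrocyte markers, 4 were lower (median -0.67), while 13.4% of all genes were lower. Summed levels ran from 758 to 1442 FPKM for neocortex and from 2618 to 4674 FPKM for oligodendrocyte markers, each lowest in R6/1-vehicle and highest in WT-vehicle. With RGFP109, 1 of 10 neocortex markers (median -0.19) and 0 of 6 oligodendrocyte markers (median -0.18) were lower in R6/1. In that same comparison 10 of 12 striatal projection neuron markers (median -1.34) and 7 of the 10 immediate early genes were lower. Of all genes, 11.7% were lower there. In WT mice, where the immediate early genes had a median of -0.30 with RGFP109 against vehicle, all 6 oligodendrocyte markers were below 0 (median -0.37) and the neocortex markers had a median of -0.19. Of all genes, 52.0% were below 0 there. In R6/1 mice the neocortex markers had a median of 0.43 in the treatment comparison and the immediate early genes 0.03.
Choroid plexus markers differed along both axes, with summed levels of 47.4, 26.5, 16.2 and 9.82 FPKM in WT-vehicle, R6/1-vehicle, WT-RGFP109 and R6/1-RGFP109, and all 8 were lower with RGFP109 in either genotype. Of all genes, 4.92% were lower with RGFP109 in WT and 3.14% in R6/1. Astrocyte, microglia and endothelial markers had medians between -0.19 and -0.43 in the genotype comparisons. No marker was at 0 in any group. The part of these marker differences in the levels of the immediate early genes was not tested.

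Finally, genes were ranked by the distance of their 4-group profile, in log2 FPKM centered on each gene's mean, from the median profile of the 10 immediate early genes. That median profile was 0.47 in WT-vehicle and 0.31 in WT-RGFP109, against -0.42 in R6/1-vehicle and -0.36 in R6/1-RGFP109. Of 12978 genes ranked, the 5 nearest were Kctd17 (distance 0.023), Hsd11b1 (0.042), Rfc5 (0.042), Slc8a2 (0.047) and Crip2 (0.050). Kctd17 was at 145 FPKM in WT-vehicle and 131 in WT-RGFP109, against 80.0 in R6/1-vehicle and 81.4 in R6/1-RGFP109, in the same order of groups as the median profile. Likeness over 4 values is a weak description, and none of these 5 genes was among the nearest 5 when each profile was also divided by its standard deviation.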

How the data were processed

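Libraries were prepared from striatal RNA with the Illumina TruSeq RNA kit and sequenced single-end in 2 pools, each with libraries of all 4 groups. The values used here cannot be traced to a pool. The authors aligned reads with STAR 2.5.0b to mm10 with RefSeq genes and estimated gene FPKM per group with Cufflinks and Cuffdiff 2.2.1, and deposited 6 tables, 1 per pair of the 4 groups, in which R6/1 groups are called MUT. Replicates were pooled by the authors, so each FPKM is their group value. Read depth could not be recovered from the low values. The tables also hold the authors' fold changes, test statistics, p-values and q-values, which were not used. No per-sample columns were left unmapped (0).

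Differences were computed with Python 3.11.15, numpy 2.4.6 and pandas 2.3.3 as log2(FPKM + 0.05), with a minimum of 0.1 FPKM in either group and a limit of 0.5, and the code was tested on simulated data. The pseudocount and minimum follow the study's gene set analysis and the limit its differential expression calls, which also required a q-value not used here. Named were all 10 members, from each list up to 4 genes with the largest and smallest genotype difference with vehicle, and the 5 genes of nearest profile among those at 1 FPKM or more in every group. Members and lists were chosen with earlier results of these data known. Motifs were searched in RefSeq promoter windows. Alternative pseudocounts, minimums, limits and centering were run.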

Additional observations from a re-analysis of the deposited data

How the results depend on the processing

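No paired analysis was possible because the tables hold 1 value per group and carry no replicate. For the same reason no library could be left out and no outlying mouse could be looked for. No direction of the 10 genes in the 6 comparisons was reversed under any alternative run. Dropping the pseudocount, dropping the minimum, raising it to 1 FPKM, keeping only genes that passed the authors' status, or centering on the median of all genes moved no gene across the limit, although the minimum of 1 FPKM and the status each removed Egr2 from R6/1-RGFP109 against R6/1-vehicle. A pseudocount of 1 FPKM put Fosl2 with vehicle at -0.41, inside the limit. It also brought Egr2 with vehicle to -1.77, near Npas4 at -1.5 and Arc at -1.46.

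The counts depended on the limit. With a log2 limit of 1, the number of genes lower was 4 for R6/1-vehicle against WT-vehicle (4.45% of all genes), 2 for R6/1-RGFP109 against WT-RGFP109 (3.70%), 0 for WT-RGFP109 against WT-vehicle (1.79%), 3 for R6/1-RGFP109 against WT-vehicle (4.40%) and 2 for R6/1-vehicle against WT-RGFP109 (3.74%). With a limit of 1.2-fold, 6 genes were lower and 1 higher in WT-RGFP109 against WT-vehicle, where 10.6% and 7.05% of all genes were. Scaling profiles by their standard deviation left 0 of the 5 genes named for likeness.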

Other observations

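The 3 orphan nuclear receptors of the NR4A family, rapid activity genes chosen here after their values were seen, all had a higher value in R6/1 mice with RGFP109 than with vehicle, beyond the limit for Nr4a2 only. Nr4a2 was at 5.17 FPKM with vehicle and 9.02 with RGFP109, a log2 difference of 0.80, and was the 1 gene among the 22 other rapid activity genes to pass the limit in that comparison. Of the 16840 genes compared, 2.62% were higher and 3.14% lower beyond the limit, and 49.4% had a lower value with RGFP109 of whatever size. Nr4a3 was at 2.25 and 2.79 FPKM (0.30) and Nr4a1 at 18.6 and 21.7 FPKM (0.22). In WT mice the same comparison gave 0.08 for Nr4a2, 0.14 for Nr4a3 and 0.10 for Nr4a1. Neocortex markers also had a median of 0.43 in the R6/1 comparison, and their part in the Nr4a2 value was not tested.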
